A study of Xenopus tropicalis with 15 samples.

Results

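The cyclins, the cyclin-dependent kinases (CDKs), the genes of CDK inhibitors and the genes named CDC for cell division cycle were examined in whole gastrulae of the frog Xenopus tropicalis. Members were chosen by symbol alone: cyclin names with a letter from a to i, k, t or y and a digit, and names that open with cdk, cdkn or cdc and a digit. This gave 75 of the 28206 genes counted: 15 with cyclin names, 25 with CDK names, 6 with CDK inhibitor names and 29 with CDC names. A name is not a function, and the set also holds genes such as cdc42 with its effectors, and cdc123, which do not drive the cell cycle. Cyclins named by a letter only, such as ccnf and ccno, lie outside it.

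Embryos were untreated, exposed to 0.3 M lithium chloride (LiCl) at the 32-cell stage, or irradiated with ultraviolet light (UV) for 2 min within 30 min of fertilisation. All came from wild-type, outbred Nigerian frogs and were collected at Nieuwkoop-Faber stage 11 to 11.5, the middle of gastrulation. There were 5 libraries of polyadenylated RNA per condition, which the submitters describe as biological replicates, and 10 pooled embryos per library. Lithium inhibits the kinase GSK3 and drives embryos towards dorsal fates, while UV on the vegetal pole blocks the cortical rotation that sets up the dorsal side. The comparisons asked which members responded to each treatment, and whether maternal and later forms pointed to a shift in developmental timing.

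Cyclins are regulatory subunits that switch on CDKs, and each step of the cycle uses its own pairs: D-type cyclins with CDK4 and CDK6 in G1, cyclin E with CDK2 at the start of DNA replication, and cyclins A and B with CDK1 for mitosis. CDC25 phosphatases remove the inhibitory phosphates from CDKs, CDK inhibitors block them, and CDC20 directs the anaphase-promoting complex to destroy mitotic cyclins. A frog egg is loaded with maternal cell cycle RNA for rapid cleavage divisions without gap phases, and after the midblastula transition these transcripts decay while zygotic forms take over. In Xenopus, cyclin A1 (ccna1) is the maternal cyclin A and cyclin A2 (ccna2) the form that replaces it.

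Libraries held 8412818 to 18455126 counts, of which the members took 0.984% to 1.2% in 13 libraries, 1.36% in untreated replicate 4 and 1.47% in LiCl replicate 4. Those 2 libraries stood apart from the others of their condition in many members, so results that rest on them are given with and without them. UV replicates 4 and 5 were the closest pair of replicates, with a chi-square per gene of mean 5.0 and median 1.18 over 11824 genes. The next pair, untreated 1 and 3, had 15.6 and 3.56, and sampling noise alone gives a mean of about 1. This measure compares with counting noise only, so it cannot show whether UV 4 and UV 5 came from separate embryos. They were kept as separate samples, as the submitters describe them. The treatments could be read in part in marker lists, at the FDR of 5% explained below and against untreated embryos. These lists were chosen with earlier results of these data known, so their counts are not an independent check. With LiCl 7 of 10 dorsal organiser genes were higher (6.87% of all genes). Lower with LiCl were 12 of 13 epidermal and 6 of 9 ventral mesoderm genes (6.59% of all genes). With UV 5 of 10 organiser and 5 of 9 neural plate genes were lower (0.527% of all genes). No neural plate gene passed as higher with LiCl, and no epidermal or ventral mesoderm gene as higher with UV.

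A filter on low counts left 68 of the 75 members for testing, among 14041 genes in all. The 7 others were near the detection limit in every condition, such as cdk6, the second partner of D-type cyclins, with 1 count in all 15 libraries together, and cdk18 with 3. Levels are given as CPM, the counts of a gene per 1000000 counts of its library, scaled between libraries by the TMM method. In untreated embryos 33 tested members had a mean above 100 CPM, 18 lay between 10 and 100 CPM and 17 lay below 10 CPM. Per kilobase of exon, the highest level among tested members was that of the mitotic cyclin ccnb1.2 with 833 CPM per kb, followed by the small GTPase cdc42 (356), ccne1 (273), cdc20 (259), ccna2 (247), the transcription kinase cdk9 (240) and ccnb2 (211). The D-type cyclins ccnd1 and ccnd2 were at 12.2 and 7.06 CPM per kb. Levels per kilobase depend on gene models that differ in how much untranslated sequence they hold.

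**Figure D1:**
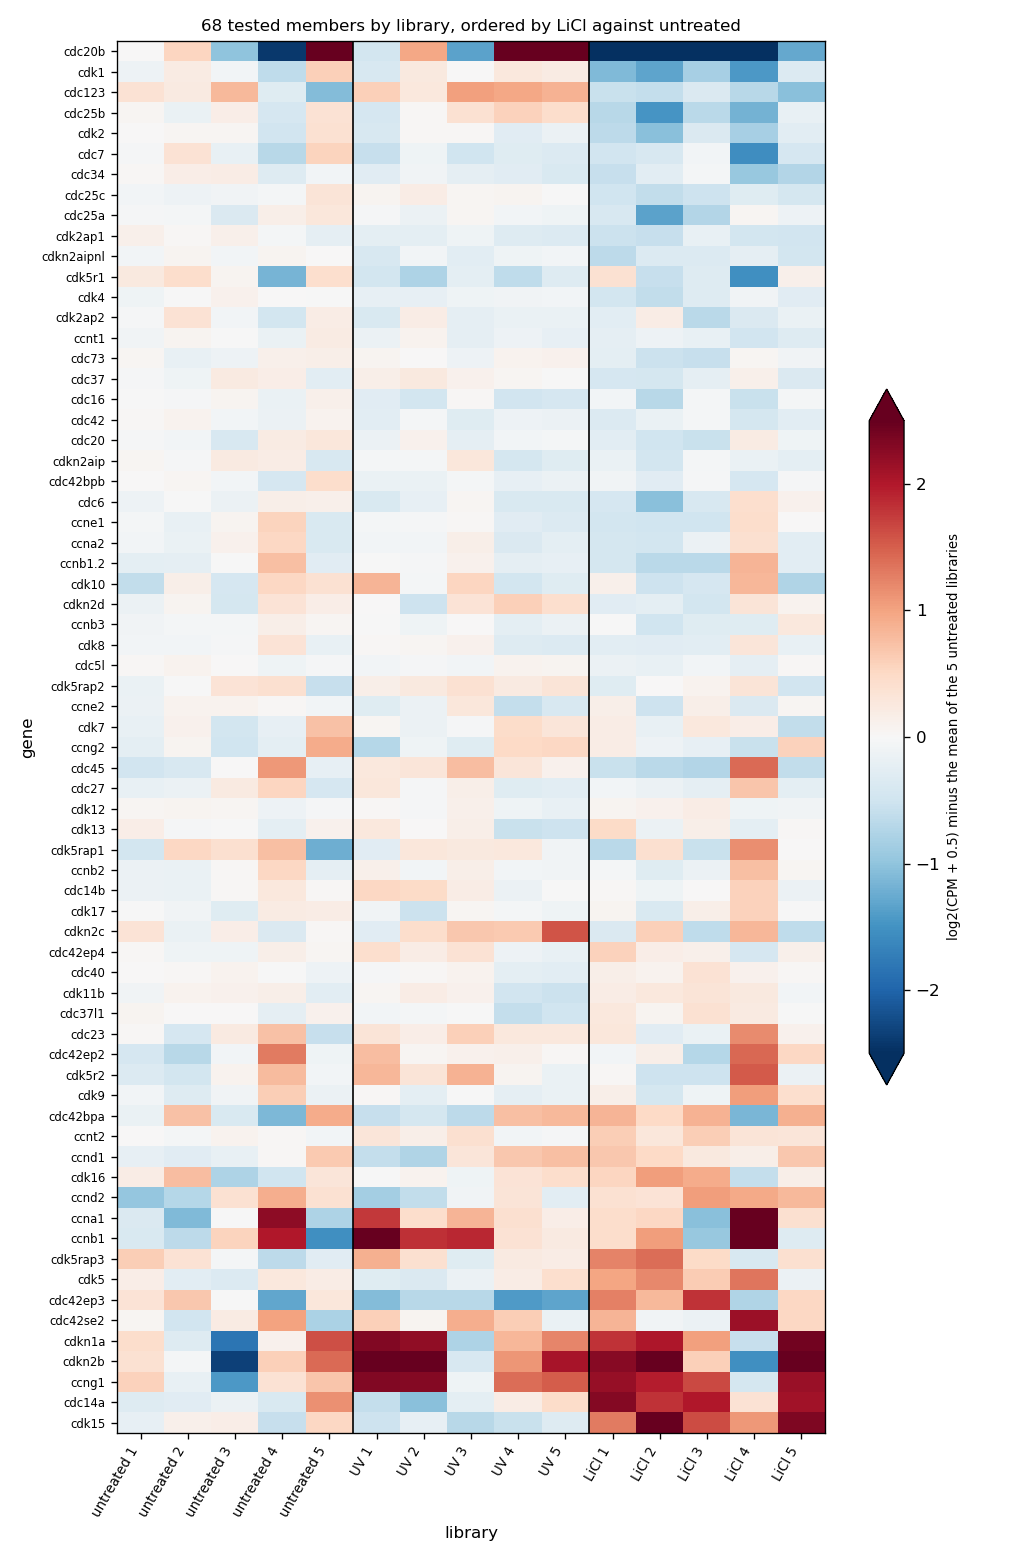
Heat map of the 68 tested members (rows, ordered by the LiCl against untreated fold change) in the 15 libraries (columns). Colour is the log2 CPM, with a small constant added, minus the mean of the 5 untreated libraries, red for higher and blue for lower, and the libraries untreated 4 and LiCl 4 share blocks of red and blue that the other libraries of their conditions lack.

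The mRNA of the main cell cycle kinases and of 2 of their activating phosphatases was lower with LiCl than in untreated embryos. None of the 10 tested A-, B-, D- and E-type cyclins passed in the fit of condition alone to all 15 libraries. The cyclin gene ccnf, outside the set, did pass in that fit and was lower with LiCl. A call here is a false discovery rate (FDR) of at most 5% by edgeR's quasi-likelihood test with Benjamini-Hochberg adjustment over all 14041 genes. Between LiCl-treated and untreated embryos 13 of 68 members were called, with 7 left without LiCl 1 and 8 without LiCl 2. Of these, 9 were lower with LiCl, 13.2% of the members, where 6.59% of all genes tested were lower. The other 4 were higher, 5.88% of the members against 6.87% of all genes. The lower calls fell to 4 without LiCl 1, 5 without LiCl 2 and 4 in the 10 libraries of the comparison. All calls in those fits were 10.3%, 11.8% and 10.4% of the members. Over all genes they were 9.76%, 8.23% and 8.69%. These shares take both directions together. Lower calls over all genes were not counted in those fits. Whether the excess of lower calls seen with all 15 libraries held there is therefore not known. The stricter threshold of a 2-fold change at an FDR of at most 1% called 1 member, cdk15, while 3.67% of all genes passed it. The median log2 fold change was −0.07 over the members and 0.01 over all genes.

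CDK1, the kinase of mitosis (scaffold 7, 9698495 to 9706905), was counted at 115, 145, 120.3, 81.0 and 190.3 CPM in untreated replicates 1 to 5. The values were 94.9, 149, 127, 151 and 144 CPM with UV and 58.0, 49.9, 70.2, 46.2 and 99.4 CPM with LiCl. Every LiCl library lay below the untreated library of its number, but the groups overlapped, since LiCl 5 stood above untreated 4. cdk1 was 2.01-fold lower with LiCl than in untreated embryos (log2 fold change −1.01 ± 0.24 SE, FDR 0.0112, edgeR) and differed by −1.04 ± 0.24 from UV (FDR 0.00712). Both calls held in all 24 alternative fits, and without untreated 4 and LiCl 4 the difference from untreated embryos was again −1.01.

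CDK2, which partners cyclins E and A around DNA replication (scaffold 2, 81160042 to 81173024), stood at 113, 115, 117, 80.1 and 147 CPM in untreated embryos. With LiCl it was at 71.5, 54.4, 87.2, 63.1 and 93.4 CPM, each below the untreated library of its number. Its log2 fold change was −0.63 ± 0.17 (FDR 0.0239, edgeR). The call was lost in 5 of 24 alternatives, among them those without untreated 2, untreated 5, LiCl 1 or LiCl 2, with an FDR of up to 0.0677. UV libraries were at 85.2 to 115 CPM, and the LiCl to UV difference of −0.46 ± 0.17 did not pass (FDR 0.0837, edgeR).

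CDK4, the partner of D-type cyclins (scaffold 2, 141396873 to 141411644), was at 216, 230.5, 251, 233 and 232 CPM in untreated libraries. LiCl libraries were at 169.8, 152, 187, 218 and 191 CPM, and only LiCl 4 reached into the untreated range. The decrease was small, with a log2 fold change of −0.34 ± 0.09 (FDR 0.0245, edgeR). It was lost in 5 of 24 alternatives, including those without untreated 3, LiCl 1 or LiCl 2, and with library totals in place of TMM it was −0.22 with an FDR of 0.194. All 3 tested cell cycle CDKs were thus lower with LiCl than in untreated embryos. Against UV, cdk4 did not pass (−0.21 ± 0.09, FDR 0.159, edgeR), as cdk2 did not. CDK7 (cdk7), the kinase that activates the others, was not called. It was at 8.15 to 19.1 CPM in untreated and 7.18 to 13.7 CPM in LiCl libraries (log2 fold change −0.07 ± 0.25).

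Of the 3 CDC25 phosphatases, 2 were called. CDC25C, a mitotic activator of CDK1 (scaffold 3, 76758663 to 76782538), was at 99.5, 94.9, 97.0, 101 and 131 CPM in untreated and 73.2, 67.6, 72.8, 83.6 and 76.8 CPM in LiCl libraries, with no overlap. Its log2 fold change was −0.48 ± 0.10 (FDR 0.00645, edgeR), and the call held in all 24 alternatives. With UV it was at 104 to 118 CPM, also above every LiCl library, and the LiCl to UV difference was −0.55 ± 0.10 (FDR 0.0018).

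CDC25B (scaffold 1, 204075574 to 204091152) was at 720.1, 622, 782, 520.3 and 898 CPM in untreated embryos and at 431, 249, 439, 306 and 615 CPM with LiCl. Only LiCl 5 reached the untreated range. The log2 fold change was −0.80 ± 0.24 (FDR 0.0352, edgeR), which was lost in 9 of 24 alternatives, 8 of which left out 1 library other than LiCl 5, untreated 4 or a UV library. Against UV, where it was at 517 to 1043 CPM, the difference was −1.01 ± 0.24 (FDR 0.00828) and held in all 24. An exon of cdc25b overlaps a gene on the opposite strand, and since the library kit does not mark strand, reads of the overlap cannot be told apart. The third phosphatase, cdc25a, was at 65.9 to 104 CPM in untreated and 33.1 to 88.1 CPM in LiCl libraries and did not pass (−0.45 ± 0.20, FDR 0.168, edgeR).

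**Figure D2:**
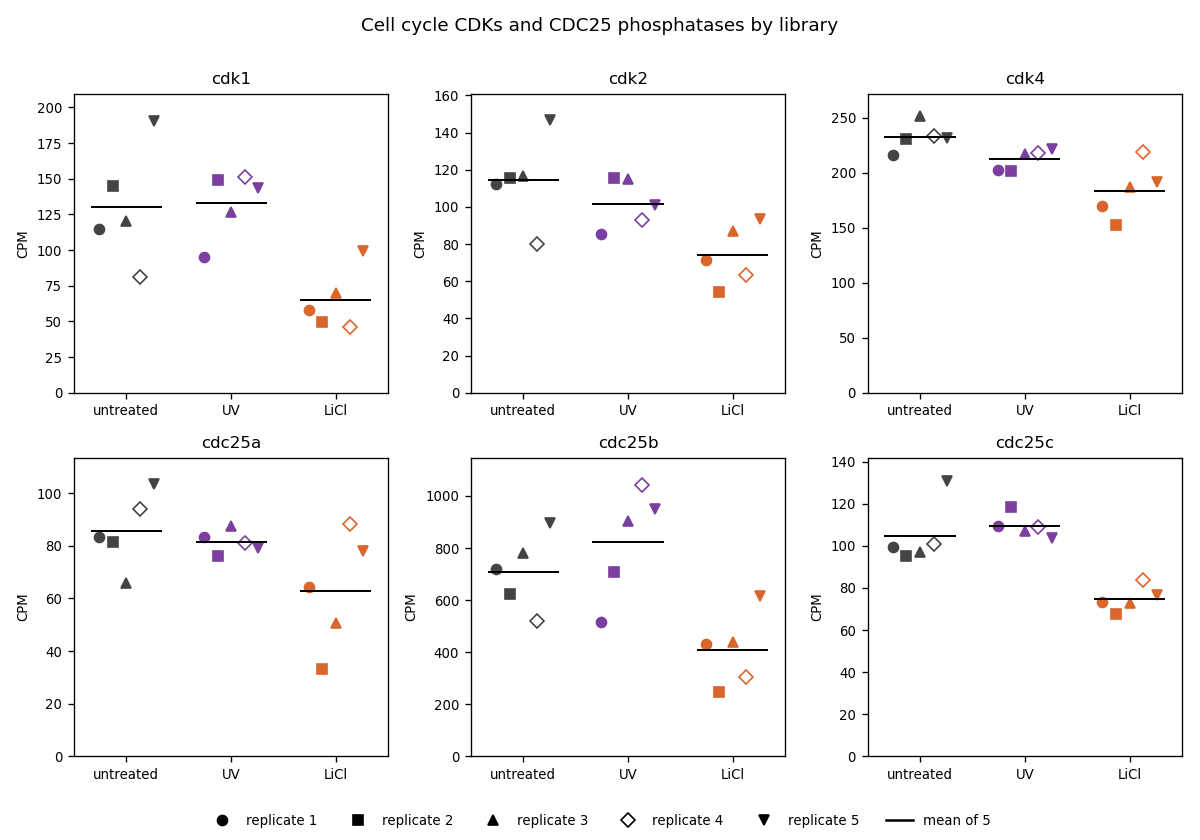
CPM of cdk1, cdk2, cdk4, cdc25a, cdc25b and cdc25c in each library, on linear axes from 0, with 1 symbol per replicate number and a line at the mean of 5 libraries. LiCl and untreated libraries do not overlap for cdc25c (67.6 to 83.6 against 94.9 to 131 CPM), while for cdk1 LiCl 5 at 99.4 CPM stands above untreated 4 at 81.0 CPM.

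The remaining lower members had other roles. cdc20b (scaffold 1, 9590892 to 9598372) is a relative of cdc20 known from multiciliated cells, where it serves centriole production. It was at 10.4, 15.1, 4.87, 1.52 and 77.7 CPM in untreated, 7.36, 20.5, 3.75, 74.7 and 66.1 CPM in UV and 0.509, 0.336, 0.0628, 0 and 3.92 CPM in LiCl libraries. The LiCl values rest on 5, 3, 1, 0 and 71 counts, and only LiCl 5 overlaps the untreated range.

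The fitted log2 fold change of cdc20b was −4.36 ± 1.25 (FDR 0.0312, edgeR), a size that depends on the prior count of the fit, and against UV it was −5.02 ± 1.28 (FDR 0.0144). The first call was lost in 6 of 24 alternatives: without untreated 5 (−2.91), LiCl 1, LiCl 2 or LiCl 3, without the filter on low counts and in the 10 libraries of the comparison alone. Without LiCl 5 it was −6.72. Other genes of multiciliated cells were lower as well. Of 10 tested, cdc20b included, 4 were lower with LiCl than in untreated embryos, where 6.59% of all genes were. Against UV 7 were lower, where 6.34% of all genes were. None was higher, and the medians over the 10 were −0.62 and −1.52. Among the non-members were the transcription factor gene myb (−2.0 ± 0.50, FDR 0.016) and the cyclin gene ccno (−1.78 ± 0.48, FDR 0.0235), both against untreated embryos and by edgeR. The summed level of the list was 509 to 1232 CPM in untreated, 827 to 1715 CPM in UV and 351 to 634 CPM in LiCl libraries, and that of the epidermal list 6061 to 13440, 10070.0 to 19940.0 and 1696 to 3586 CPM. Their part in the cdc20b result was not tested. In whole embryos fewer cells of a type and less RNA per cell cannot be told apart.

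cdk2ap1, whose product binds CDK2, was at 143, 133, 144, 126 and 113 CPM in untreated and 90.3, 88.4, 116, 95.0 and 94.5 CPM in LiCl libraries. Its log2 fold change was −0.45 ± 0.10 (FDR 0.00928, edgeR), with LiCl 3 the only library inside the untreated range. cdkn2aipnl, a relative of the gene of the ARF-binding protein CARF, was at 167 to 185 CPM in untreated and 112 to 151 CPM in LiCl libraries without overlap (−0.39 ± 0.10, FDR 0.0141). Both calls were lost under library totals alone, with FDRs of 0.053 and 0.10. cdc34, a ubiquitin-conjugating enzyme of the SCF complexes, was at 254 to 357 CPM in untreated and 163 to 303 CPM in LiCl libraries (−0.49 ± 0.15, FDR 0.0397, edgeR), a call that was lost in 10 of 24 alternatives, 6 of which left out 1 library each: untreated 1, 2 or 3, or LiCl 1, 4 or 5.

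The 4 members higher with LiCl were not drivers of the cell cycle. The strongest was cdk15 (scaffold 9, 27149883 to 27244520), a little-studied kinase of the PFTAIRE branch of the CDK family. It was at 1.92, 2.54, 2.62, 1.37 and 3.49 CPM in untreated, 1.44, 1.92, 1.23, 1.39 and 1.74 CPM in UV and 6.41, 16.6, 8.16, 5.40 and 13.6 CPM in LiCl libraries. Every LiCl library lay above every other library. It was 4.21-fold higher than in untreated embryos (log2 fold change 2.07 ± 0.33, FDR 0.00135, edgeR) and 6.49-fold higher than with UV (2.70 ± 0.34, FDR 0.000123), and both calls held in all 24 alternatives.

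cdc14a, a phosphatase that opposes CDKs in yeast (scaffold 4, 21341423 to 21376143), was at 1.499, 1.56, 1.78, 1.42 and 5.01 CPM in untreated and 11.8, 8.29, 9.54, 2.74 and 10.3 CPM in LiCl libraries. Untreated 5 stood above LiCl 4, so the groups overlapped. The log2 fold change was 1.92 ± 0.47 (FDR 0.014, edgeR), and it was 2.27 ± 0.48 against UV (FDR 0.00418), where libraries were at 0.722 to 2.95 CPM. Both held in all 24 alternatives.

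Cyclin T2 (ccnt2), which with CDK9 forms the elongation factor P-TEFb, was the only cyclin of the set that was called. It was at 433, 416, 458, 442 and 415 CPM in untreated and 661, 528, 659, 544 and 531 CPM in LiCl libraries, with no overlap (0.43 ± 0.10, FDR 0.0123, edgeR), in all 24 alternatives. Its partner cdk9 was at 534 to 1029 and 494 to 1371 CPM in the same groups, with LiCl 4 and untreated 4 the highest of each, and did not pass (0.26 ± 0.23, FDR 0.529). The related ccnt1 was not called either (−0.27 ± 0.10, FDR 0.0887). Outside the set, the cyclin genes ccnf (−0.31 ± 0.08, FDR 0.0167, edgeR) and ccno were lower with LiCl than in untreated embryos.

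cdk5, a kinase known mainly from neurons, was at 7.68 to 12.02 CPM in untreated and at 20.05, 23.5, 15.6, 25.6 and 8.95 CPM in LiCl libraries. LiCl 5 lay inside the untreated range. The log2 fold change was 0.89 ± 0.27 (FDR 0.0355, edgeR). The call was lost in 8 of 24 alternatives, 6 of them without 1 of untreated 1, 2 or 3 or LiCl 1, 2 or 4, and the deposited model of cdk5 spans only 159 bases of exon.

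The replicate numbers were taken to pair LiCl-treated with untreated libraries, which the sample descriptions do not state. With the number as a block the calls grew. With a block over all 15 libraries 17 of 68 members passed an FDR of 5% (25.0%, against 20.6% of all genes in that fit). In the 10 libraries of the comparison 20 of 67 passed, 14 lower and 6 higher (29.9%, against 25.6% of all genes), compared with 13 of 68 without the block (19.1%, against 13.5%). The calls over all genes thus grew in the same way. All 13 were among the 20. The 7 added were cdc7 (−0.59 ± 0.15), cdk5rap3 (0.72 ± 0.21), cdc42 (−0.25 ± 0.08), ccnd2 (0.73 ± 0.22), cdc123 (−0.72 ± 0.22), cdc73 (−0.28 ± 0.09) and cdc25a (−0.50 ± 0.16), with FDRs of 0.0212 to 0.043 by edgeR. At 2-fold and an FDR of 1% the paired count was 4, against 1, and 6.69% of all genes passed in the paired fit of the 10 libraries. Without the 2 libraries that stood apart, untreated 4 and LiCl 4, the fit without a block called 15 of 68 members (22.1%, against 19.2% of all genes).

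UV changed no member past the threshold. By edgeR 0 of 68 were called, where 0.057% of all genes were higher and 0.527% lower with UV, and 0.0712% passed the 2-fold threshold at an FDR of 1%. At an unadjusted p of at most 0.05 there were 6 members, 8.82% of those tested against 11.5% of all genes, and DESeq2 called 0. The smallest p was that of cyclin G1 (ccng1), a target of p53, with a log2 fold change of 1.53 ± 0.50 (FDR 0.227, edgeR), followed by the Cdc42 effector gene cdc42ep3 with −1.43 ± 0.50 (FDR 0.25). The count rested on the libraries used: without untreated 4 and LiCl 4, a fit chosen after their values were seen, 3 members passed, cdc42ep3 (−1.66 ± 0.32, FDR 0.0127) and the CDK5 activator gene cdk5r1 (−0.80 ± 0.21, FDR 0.047) lower and the replication factor gene cdc45 higher (0.67 ± 0.17, FDR 0.0371). Over all genes the same fit raised the calls from 82 of 14041 to 633 of 14238, or 4.45%, and the 3 members are 4.41% of those tested.

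LiCl and UV, compared with each other, called 10 members. This comparison shares its LiCl libraries with the first. The 5 lower with LiCl were 7.35% of the members against 6.34% of all genes, and the 5 higher were 7.35% against 8.87%. At 2-fold and an FDR of 1% there were 6, where 6.1% of all genes passed. That count rested on single libraries. It was 2 without UV 4, LiCl 1, LiCl 2 or LiCl 3, 3 without UV 2, UV 3 or UV 5, and 8 without LiCl 5. Over all genes 4.28% to 7.92% passed with single libraries left out. Of the members called against untreated embryos, cdk2, cdk4, cdk2ap1, cdkn2aipnl, cdc34 and ccnt2 did not pass against UV (FDRs of 0.0837 to 0.365, edgeR). Their estimates for UV against untreated embryos, from −0.26 to 0.16 and not called, had the same sign as those for LiCl. Besides cdk1, cdc25b, cdc25c, cdc20b, cdk15, cdc14a and cdk5 (0.93 ± 0.27, FDR 0.0267, lost in 7 of 24 alternatives), 3 further members were called.

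cdc123, which helps to assemble the translation factor eIF2, was at 10.6, 8.34, 14.4, 13.9 and 12.8 CPM with UV and at 4.48, 4.37, 5.21, 4.03 and 3.04 CPM with LiCl. The groups did not overlap (−1.51 ± 0.31, FDR 0.00354, edgeR). Untreated libraries spread from 2.98 to 12.3 CPM, over both groups, and an exon of cdc123 overlaps nudt5 on the opposite strand. cdc42ep3 was at 1.1, 1.60, 1.61, 0.787 and 0.868 CPM with UV and at 7.63, 5.49, 11.5, 1.53 and 4.36 CPM with LiCl, with LiCl 4 alone inside the UV range (2.34 ± 0.50, FDR 0.00479).

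The tenth call, cdc37l1, a relative of the Hsp90 co-chaperone gene cdc37, was small and depended on the libraries. It was at 33.4 to 50.7 CPM with UV and 50.8 to 66.2 CPM with LiCl, without overlap (0.42 ± 0.14, FDR 0.0476, edgeR), and was lost in 15 of 24 alternatives, 12 of which left out 1 library each. An exon of cdc37l1 shares bases with a gene on the opposite strand. ccnd2 did not overlap between these groups either, at 3.71 to 9.08 CPM with UV and 9.19 to 15.2 CPM with LiCl, but did not pass (1.03 ± 0.36, FDR 0.0641). In all, 5 of 68 members did not overlap between LiCl and UV, where 12.4% of all genes did not, and 4 of 68 between LiCl and untreated embryos, where 8.36% did not. Without untreated 4 and LiCl 4, the LiCl to UV count was 17 in place of 10, 11 lower and 6 higher, with ccnb1.2, cdc45, cdc37, cdc73, cdk4 and cdk5r2 added among the lower and ccnd2 among the higher. The 17 are 25.0% of the members tested, where 24.7% of all genes were called in that fit.

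**Figure D3:**
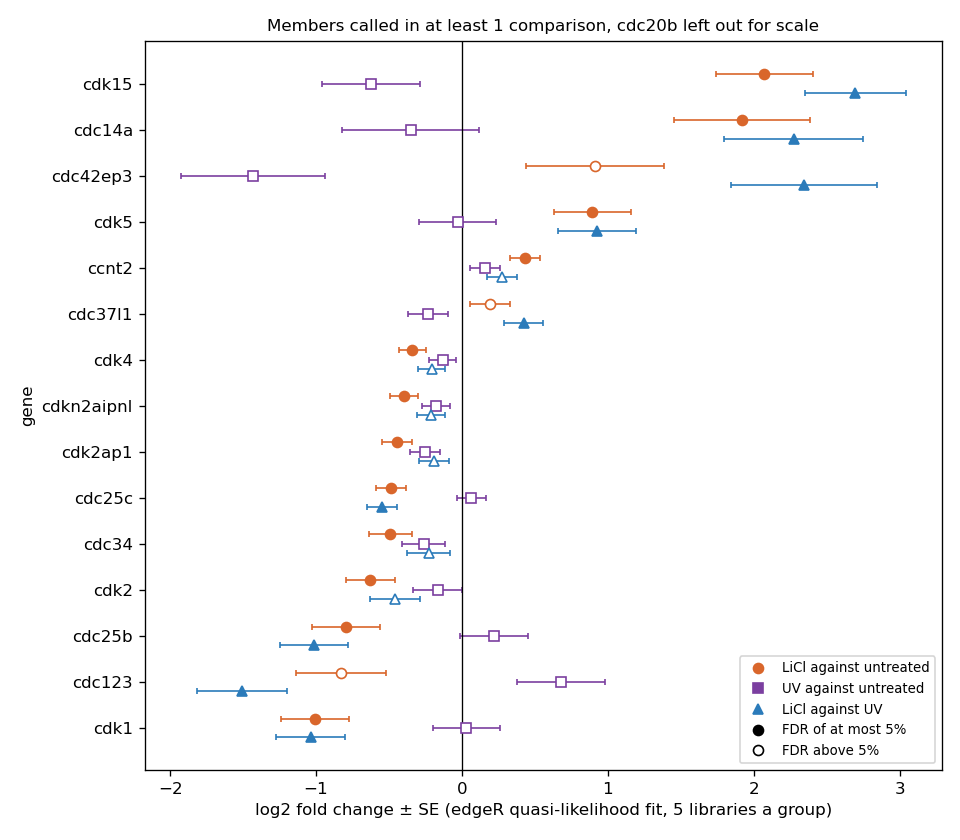
Log2 fold changes with their SE for the 15 members other than cdc20b called in at least 1 comparison (5 libraries a group), with filled symbols for an FDR of at most 5%. LiCl against untreated and LiCl against UV share the LiCl libraries, and the UV against untreated estimates, from −1.43 for cdc42ep3 to 0.68 for cdc123, are all open.

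The maternal and later forms of cyclin A, and the cyclin E forms, gave no difference between conditions that the full set of libraries could establish. Planned pairs of the Wee kinases and of the helicase subunits MCM3 and MCM6 were not tested. For a test, each gene of a pair had to occur once and pass the filter on low counts. The maternal cyclin gene ccna1 was at 20.6, 12.3, 26.6, 127 and 15.6 CPM in untreated, 92.4, 36.4, 48.8, 35.6 and 29.9 CPM in UV and 36.5, 38.3, 12.7, 198 and 35.2 CPM in LiCl libraries. Untreated 4 and LiCl 4 held several times the level of the other 4 libraries of their condition, and UV 1 was the highest with UV. The later form ccna2 was at 454, 422, 514, 681 and 367 CPM in untreated, 372 to 524 CPM in UV and 348 to 624.8 CPM in LiCl libraries, so it exceeded ccna1 in every library, also per kilobase, since the exons of the genes total 1970 and 2003 bases.

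The log2 ratio of ccna2 to ccna1 counts was 4.46, 5.10, 4.27, 2.42 and 4.56 in untreated libraries, with a mean of 4.16 ± 1.02 (SD, n = 5). It was 2.30, 3.63, 3.43, 3.38 and 3.75 with UV (3.30 ± 0.58) and 3.27, 3.18, 5.09, 1.65 and 3.48 with LiCl (3.34 ± 1.22). Exact two-sided permutation tests over the 252 divisions of 10 libraries, which cannot give a p under 0.00794, gave a difference of −0.86 for UV against untreated (exact p = 0.167, adjusted 0.762 over 6 tests). For LiCl against untreated it was −0.83 (exact p = 0.254, adjusted 0.762) and for LiCl against UV 0.04 (exact p = 0.984).

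The UV result turned on untreated 4. Without that library the ratio was 1.30 log2 units lower with UV than in untreated embryos, every UV library lay below every untreated library that was left, and the exact permutation test gave an unadjusted p = 0.00794. For LiCl the difference without untreated 4 and LiCl 4 was −0.84 (exact permutation p = 0.114). With the replicate number as a block, by exact sign flips within the 5 numbers, the p was 0.188 for LiCl and 0.25 for UV against untreated embryos, in a test that cannot give a p under 0.0625. The UV value rests on pairing UV with untreated libraries by number, which was assumed for LiCl only. Over all genes UV 4 correlated at −0.254 with untreated 4.

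For cyclin E no difference was detected. ccne1 was at 645, 587, 698, 985 and 515 CPM in untreated, 530.4 to 678 CPM in UV and 474 to 913 CPM in LiCl libraries, and ccne2 was at 178 to 211, 129.9 to 242 and 137 to 219 CPM. The log2 ratio of ccne2 to ccne1 counts was −1.76 ± 0.34 in untreated, −1.86 ± 0.23 in UV and −1.67 ± 0.59 in LiCl libraries (SD, n = 5 each), and the exact permutation p was 0.73 for LiCl and 0.619 for UV against untreated embryos. Without untreated 4 and LiCl 4 the differences were 0.19 and −0.22 (exact permutation p = 0.371 and 0.151). The sources used here do not establish which cyclin E form replaces the other in this frog, and both genes overlap a gene on the opposite strand.

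**Figure D4:**
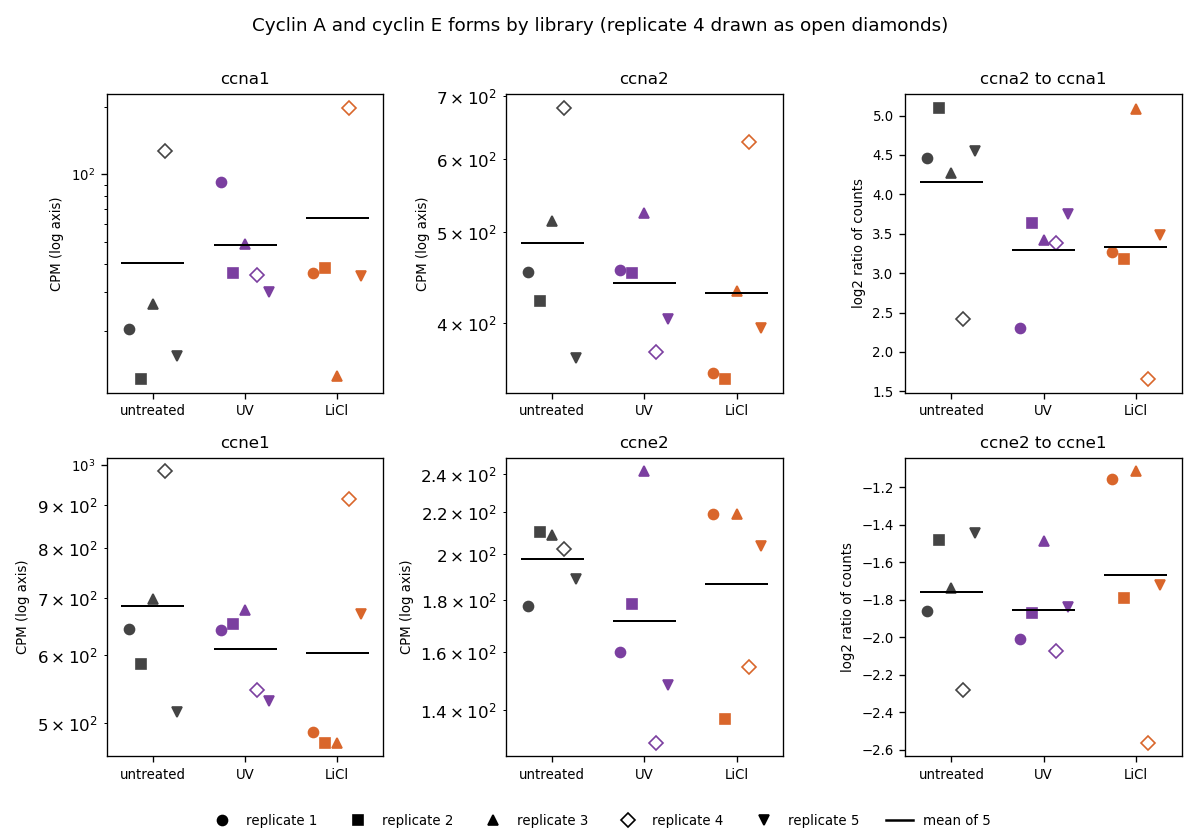
CPM of ccna1, ccna2, ccne1 and ccne2 on log axes and the log2 ratios of ccna2 to ccna1 and ccne2 to ccne1 on linear axes, for each library, with replicate 4 as open diamonds and a line at the mean of 5 libraries. In ccna1 the diamonds of untreated (127 CPM) and LiCl (198 CPM) embryos stand above all other libraries, and the same libraries have the lowest ratios of their conditions for both pairs.

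Untreated 4 and LiCl 4 differed from the rest of their conditions across the set. They were the highest or lowest of their condition for 70.6% and 77.9% of the tested members (63.4% and 67.5% of all genes). Untreated 5 was so for 58.8% and UV 3 for 57.4% of the members (56.3% and 42.1% of all genes). Both untreated 4 and LiCl 4 lay outside the range of the other 4 libraries of their condition, in the same direction, for 38 of 68 tested members, 55.9% against 46.1% of all genes tested. They were above for 22 members and below for 16, and went opposite ways for 2. UV 4 lay outside its own condition in that direction for 4 of the 38. The higher ones included the B-type cyclins ccnb1, at 97.6 CPM in untreated 4 against 7.99 to 35.5 CPM in the others and 171 CPM in LiCl 4 against 12.2 to 50.4 CPM, ccnb1.2 (1969.5 CPM against 969.6 to 1159, and 2119 CPM against 735 to 974) and ccnb2 (728 CPM against 439 to 519, and 857 CPM against 416 to 525). cdc45, a part of the replicative helicase, was at 27.8 CPM in untreated 4 and 35.1 CPM in LiCl 4, against 9.06 to 12.8 and 7.53 to 8.55 CPM in the others.

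Among the lower ones was cdc7, the kinase that fires replication origins, with 79.8 CPM in untreated 4 against 113 to 190.4 CPM and 43.9 CPM in LiCl 4 against 91.9 to 123 CPM. cdk1 was also lowest in these 2 libraries. The libraries thus combined high ccna1, ccnb1, ccnb1.2 and ccnb2 with low cdk1 and cdc7. ccnb3 was above the others in untreated 4 (352 CPM against 299.8 to 326), while in LiCl 4, at 257 CPM, it lay within the range of the others. What set these libraries apart was not tested.

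None of the 10 tested A-, B-, D- and E-type cyclins was called in the fit of condition alone to all 15 libraries. These are 9 of the chosen list and ccnb1.2. Their median log2 fold changes were 0.00 for LiCl and −0.11 for UV against untreated embryos. Other fits called some of them. ccnd2 passed for LiCl against untreated embryos with the block in the 10 libraries of the comparison (0.73 ± 0.22, FDR 0.0363, edgeR). With the block over all 15 libraries it passed too (FDR 0.0238). For LiCl against UV it passed in the 10 LiCl and UV libraries without a block (1.03 ± 0.26, FDR 0.0216) and with DESeq2 (FDR 0.026). With a block, for which UV numbers were not taken as pairs, the FDR was 0.0116 in those 10 and 0.00268 over all 15. It was 0.0386 to 0.0468 without untreated 1, untreated 4, UV 4, or both untreated 4 and LiCl 4. ccnb1.2 passed for LiCl against UV without untreated 4 and LiCl 4 (−0.43 ± 0.10, FDR 0.00819, edgeR). It also passed, as lower with LiCl, against untreated embryos when LiCl 4 alone was left out. ccnb3 was at 299.8 to 352 CPM in untreated, 267 to 318 CPM in UV and 224 to 383 CPM in LiCl libraries (−0.15 ± 0.12 for LiCl). The D-type cyclins were low: ccnd1 was at 9.12 to 18.02, 6.49 to 19.1 and 12.5 to 18.2 CPM and ccnd2 at 3.42 to 13.9, 3.71 to 9.08 and 9.19 to 15.2 CPM in untreated, UV and LiCl libraries. The estimates for LiCl against untreated embryos were 0.43 ± 0.30 and 0.60 ± 0.35, and for ccnb1, the scarcer cyclin B1 gene, 0.70 ± 0.74.

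The other members named for replication and mitosis did not pass in the fit of condition alone to all 15 libraries. For cdc45 the LiCl to UV difference was −0.31 ± 0.44 in that fit (FDR 0.727, edgeR). Without untreated 4 and LiCl 4 it was −1.05 ± 0.17 (FDR 0.00062, edgeR), so this result turned on those libraries. cdc6, which loads the helicase at origins, was at 191 to 235 CPM in untreated and 102 to 284 CPM in LiCl libraries (−0.18 ± 0.20, FDR 0.637, edgeR). cdc20 was at 321 to 518, 363 to 455 and 288 to 487 CPM in untreated, UV and LiCl libraries (−0.24 ± 0.15 for LiCl, FDR 0.333). cdc42, a regulator of cell shape and polarity, was at 842 to 991, 755 to 902 and 688 to 901 CPM (−0.25 ± 0.09 for LiCl, FDR 0.0646).

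Cyclin G1 and 2 inhibitor genes varied widely from library to library. ccng1 was at 211, 123, 51.4, 179.7 and 227 CPM in untreated, 700.2, 695, 130.4, 369 and 401 CPM in UV and 638, 547, 441, 104 and 628 CPM in LiCl libraries. Most treated libraries were above every untreated library, and UV 3 and LiCl 4 were not. Its log2 fold changes were 1.57 ± 0.50 for LiCl (FDR 0.0508, edgeR) and 1.53 ± 0.50 for UV (FDR 0.227) against the same untreated libraries. The LiCl value lay at the threshold and its call turned on the fit. It did not pass in the 10 libraries of the comparison, without a block (FDR 0.0649) or with it (1.55 ± 0.56, FDR 0.0995). Without the filter on low counts the FDR was 0.113. With any library other than UV 3 or LiCl 4 left out, it was 0.0517 to 0.104. The call passed with the block over all 15 (FDR 0.0279), where UV 4 correlated negatively with the other libraries of its number. It also passed with DESeq2 (FDR 0.0105), RLE size factors (0.0499), library totals (0.0347) and the stricter filter (0.047), and without UV 3 (0.0313), LiCl 4 (0.0113) or both untreated 4 and LiCl 4 (1.91 ± 0.50, FDR 0.018).

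cdkn1a, the gene of the CDK inhibitor p21 and a p53 target, was at 9.12, 5.21, 1.499, 7.19 and 21.1 CPM in untreated, 34.9, 32.4, 3.69, 12.1 and 16.1 CPM in UV and 24.5, 28.5, 14.0, 4.27 and 37.3 CPM in LiCl libraries. cdkn2b, the gene of an inhibitor of CDK4 and CDK6, was at 10.1, 7.36, 1.12, 11.9 and 21.4 CPM, 60.5, 68.9, 5.67, 17.2 and 33.8 CPM and 38.9, 46.3, 11.9, 2.34 and 51.4 CPM in the same order. For all 3 genes the lowest library of each condition was untreated 3, UV 3 and LiCl 4. The estimates for cdkn1a were 1.29 ± 0.67 with LiCl and 1.16 ± 0.67 with UV, and those for cdkn2b 1.53 ± 0.79 and 1.84 ± 0.79, with FDRs of 0.229 to 0.557 by edgeR. cdkn2c and cdkn2d were near the detection limit, at means of 0.289 to 0.799 and 1.70 to 2.21 CPM per condition, and were not called.

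**Figure D5:**
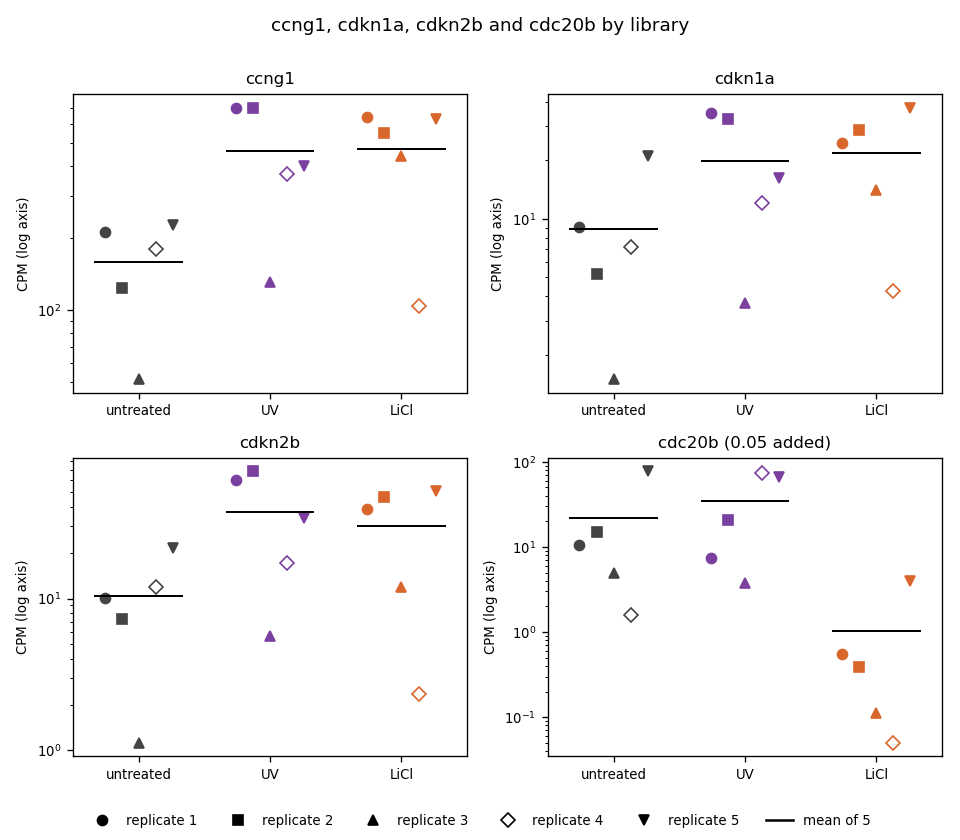
CPM of ccng1, cdkn1a, cdkn2b and cdc20b in each library on log axes, with a small constant added for cdc20b because LiCl 4 has 0 counts, and a line at the mean of 5 libraries. Untreated 3, UV 3 and LiCl 4 are the lowest of their conditions for ccng1, cdkn1a and cdkn2b, and cdc20b spans 1.52 to 77.7 CPM within untreated libraries alone.

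Across the tested members the share of log2 variance taken by condition had a median of 18.5%, and the share taken by replicate number a median of 37.6%. The values over all genes were 22.3% and 37.7%. Condition took the larger share in 33.8% of the members and 36.6% of all genes, with 2 degrees of freedom against 4 for replicate number. UV 4 correlated negatively with the other libraries of its number.

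Partners outside the set were read from lists of the same pathways, chosen with earlier results of these data known. Of all genes tested, 6.59% were lower and 6.87% higher with LiCl than in untreated embryos at the same FDR. Of 15 mitotic kinase and checkpoint genes, 3 were lower with LiCl than in untreated embryos and none was higher: the CDK-binding subunit gene cks2 (−0.69 ± 0.14, FDR 0.0059), the spindle checkpoint kinase gene ttk (−0.58 ± 0.12, FDR 0.006) and plk1 (−0.59 ± 0.14, FDR 0.013), all by edgeR. Of 27 genes of replication licensing and firing, members included, 1 was called, the helicase subunit gene mcm6 (−0.74 ± 0.21, FDR 0.028). Among 11 genes of the Rb and E2F families, which hold S phase genes in check or switch them on, rb1 (0.67 ± 0.20) and tfdp2 (0.53 ± 0.17) were higher and e2f3 lower (−0.47 ± 0.11). The frog CDK inhibitor gene cdknx, which the naming rule missed, was lower with LiCl (−1.68 ± 0.42, FDR 0.017). Of 17 maternal egg transcripts, btg4 was higher (1.71 ± 0.42, FDR 0.014) and cdc25c lower with LiCl, and none of 17 was called with UV.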

How the data were processed

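RNA was measured in 15 libraries, 5 per condition. The deposited values are whole-number counts of paired-end reads per gene, which the authors made with TopHat2 against their gene models on assembly v7.1 and HTSeq-count; the submitters' notes list TopHat2 2.0.10 and 2.1.1, with no role given, and the strand setting is not given in the sources used here. The deposited gene models supplied exon positions and lengths (another kind of value). Counts had no molecular identifiers, so precision covers PCR copies as well as molecules.

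Counts were fitted in R 4.3.3 with edgeR 4.0.16: filterByExpr by condition, TMM, a robust quasi-likelihood fit of condition alone to the 15 libraries, a prior count of 0.125 and Benjamini-Hochberg adjustment over 14041 genes. The SE is the log2 fold change divided by the square root of F. Of the fits, only that of condition alone by edgeR was tested on simulated data, for LiCl against untreated embryos. The simulated libraries held no replicate effect and none that stood apart, so that test says nothing on either. Alternatives were DESeq2 1.42.0, other scalings and filters, a replicate block and each library left out. Cyclin ratios used exact permutation. Pairing was checked on deviations from condition means. Same-numbered LiCl and untreated libraries correlated at 0.338 to 0.731 over all genes and 0.0734 to 0.709 over the members. UV 4 correlated at −0.254 with untreated 4 and −0.12 with LiCl 4. UV 1, 2, 3 and 5 correlated at 0.253 to 0.543 with the untreated libraries of their number. Numbers were taken to pair LiCl with untreated libraries only. Libraries of different numbers were not compared across conditions, so this pairing is an assumption. Named members were a list of core cell cycle genes plus every member called, with up to 3 non-members per pathway list. The members and lists were chosen with earlier results of these data known.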

Additional observations from a re-analysis of the deposited data

Results flagged for a closer look

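In 111 groups of 5 libraries, for 37 named members, 15 held a library whose gap to the nearest of the others exceeded 0.71 of the whole range, a limit that chance passes in about 1 in 20 groups. Untreated 4 accounted for 4 of them and LiCl 4 for 4: ccna1 at 127 and 198 CPM, ccnb2 at 728 and 857 CPM, cdc45 at 27.8 and 35.1 CPM, cdk9 at 1029 CPM in untreated 4 against 534 to 635 CPM, and ccnb1 at 171 CPM in LiCl 4. Untreated 5 accounted for 4 more, all of them high: ccnd1 at 18.02 CPM against 9.12 to 11.4, cdc14a at 5.01 CPM against 1.42 to 1.78, cdc20b at 77.7 CPM against 1.52 to 15.1 and cdc25c at 131 CPM against 94.9 to 101. The last 3 were cdc20b at 3.92 CPM in LiCl 5 against 0 to 0.509, cdk2ap1 at 116 CPM in LiCl 3 against 88.4 to 95.0 and cdc45 at 22.3 CPM in UV 3 against 13.9 to 16.0.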

How the results depend on the processing

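The 23 calls of single members kept their direction in all 24 alternatives, and 13 of them passed an FDR of 5% in every one. For LiCl against untreated embryos 13 members were called. The count was 7 in the 10 libraries of the comparison and 20 there with a block by replicate number. It was 7 to 16 with single libraries left out (7 without LiCl 1, 8 without LiCl 2). Over all genes the share called was 13.5%, and 8.69% and 25.6% in the 10 libraries without and with the block. With single libraries left out that share was 8.23% to 17.5%. At 2-fold and an FDR of 1%, where the main count was 1, it was 2 with library totals, 2 without the filter, 3 with DESeq2, 4 with either replicate block, 3 without both untreated 4 and LiCl 4 and 1 to 3 with single libraries left out. Over all genes 3.67% passed that threshold in the main fit, and 1.86% to 6.89% in these others. For UV the counts of 0 became 3 at an FDR of 5% without both untreated 4 and LiCl 4, where 4.45% of all genes were called. For LiCl against UV the count of 10 became 16 with a replicate block over 15 libraries, where UV 4 correlated negatively with the others of its number. The count was 17 without both untreated 4 and LiCl 4 and 8 to 12 with single libraries left out. The shares over all genes were 15.2%, 20.6%, 24.7% and 10.8% to 19.6% in the same order. The 2-fold count of 6 became 2 to 8, with 2 or 3 when any of UV 2 to 5 or LiCl 1 to 3 was missing. Over all genes 6.1% passed in the main fit, and 4.28% to 7.92% with single libraries left out. The cyclin A difference for UV against untreated embryos was −1.30 without untreated 4 and −0.61 to −1.30 over all single libraries left out, where only the fit without untreated 4 passed. Sign flips within replicate numbers cannot give a p under 0.0625, so a block says nothing on whether the cyclin ratios are stable. Low members, such as cdc20b with LiCl, rest on few counts. The cause of these changes was not tested.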
